A study of Mus musculus with 36 samples.

Results

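Pax6, Six3, Six6, Rax, Lhx2, Sox2, Fzd5 and Sfrp2, 8 genes that are used in the eye field and in retinal progenitors, were taken by their symbols from the 15289 genes of the deposited expression table, and all 8 were present. The table holds 33 libraries of mouse cells of the Nrl-GFP strain, whose green fluorescent reporter is named for the rod gene Nrl. Embryonic fibroblasts (MEF) at passage 2 were grown in IMR90 medium, and reprogramming was run in photoreceptor induction medium with 5 chemicals for 11 days. Cultured groups were the MEFs, the reprogramming intermediates of day 5 and day 8, and the reprogrammed day 11 cells, called CiPC in the labels, with 3 libraries in each. Isolated rods came from postnatal day 2 (P2, 2 libraries), P4 (2), P5 (3), P6 (3), P10 (4), P14 (3) and P28 (4). The P5 rods were listed with the cultures, while the rods of the other ages, apart from P10 replicate 3 and P14 replicate 3, carry the identifiers of samples from an older series, so that series and cell type cannot be told apart in any comparison across the 2 sources. The labels give sorting by reporter expression for every sample without saying which fraction of the MEFs and intermediates was kept, and they do not say what separates the replicates, so p-values measure the spread between libraries, which may be technical. The 3 samples of P3 rods were not analysed here.

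The eye field is the patch of the anterior neural plate from which both eyes form. Pax6, Six3, Six6, Rax and Lhx2 encode homeodomain transcription factors that act there and later in the retinal progenitors, and Sox2 encodes a high mobility group factor that maintains neural progenitors. Fzd5 is a Wnt receptor of the eye field and optic vesicle, and Sfrp2 is a secreted protein that binds Wnt ligands and modulates their action. Most of these genes are turned down as retinal cells differentiate, with exceptions such as Pax6 in amacrine cells, Lhx2 and Sox2 in Müller glia, and Rax in Müller glia and photoreceptors.

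In the GRCm38 annotation of GENCODE M21 all 8 are protein-coding. Pax6 (ENSMUSG00000027168.21) lies at chr2:105668900-105697364 on the plus strand, Lhx2 (ENSMUSG00000000247.11) at chr2:38339281-38369733 (plus), Six3 (ENSMUSG00000038805.10) at chr17:85613608-85629302 (plus), and Six6 (ENSMUSG00000021099.6) at chr12:72939892-72944899 (plus). Sox2 (ENSMUSG00000074637.7) lies at chr3:34650405-34652461 (plus), Sfrp2 (ENSMUSG00000027996.13) at chr3:83766321-83774316 (plus), Fzd5 (ENSMUSG00000045005.9) at chr1:64730558-64737751 (minus), and the table holds Rax as ENSMUSG00000024518.3. Pax6 has 11 coding transcripts and the counts per gene do not separate them. Opposite-strand transcripts share exonic bases with Rax (1604 bases with Raxos1), Fzd5 (1233 with Gm38058), Sfrp2 (347 with Gm26771), Six6 (192 with 4930447C04Rik) and Six3 (168 with Gm28528 and 106 with Six3os1). The strand setting of the libraries is not given in the sources used here, so reads from the shared bases of these pairs cannot be told apart.

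The promoters are shown first, since 7 of the 8 genes were higher in CiPC than at day 8 and Sfrp2 was lower. Whether the promoters bear on this was not tested. From RefSeq (GRCm38.p6), 9 windows of 250 bases before an annotated start were taken for 7 of the 8 genes. The promoter of Rax is not reported here. Printed are the 4 windows that hold no annotated exon, namely Pax6 (chr2:105668646-105668895), Lhx2 (chr2:38339031-38339280), Sox2 (chr3:34649745-34649994) and Sfrp2 (chr3:83766071-83766320), all on the plus strand, 5′ to 3′, with motif matches in capitals.
Pax6: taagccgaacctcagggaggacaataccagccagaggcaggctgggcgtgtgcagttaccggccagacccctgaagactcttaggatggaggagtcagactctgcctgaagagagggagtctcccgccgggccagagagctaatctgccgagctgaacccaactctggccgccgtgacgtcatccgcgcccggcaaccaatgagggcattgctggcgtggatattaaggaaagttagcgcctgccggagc
Lhx2: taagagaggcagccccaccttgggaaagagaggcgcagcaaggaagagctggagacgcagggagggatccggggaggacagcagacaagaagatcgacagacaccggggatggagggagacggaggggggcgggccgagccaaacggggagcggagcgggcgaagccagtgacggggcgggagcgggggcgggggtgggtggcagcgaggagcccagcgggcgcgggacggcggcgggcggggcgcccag
Sox2: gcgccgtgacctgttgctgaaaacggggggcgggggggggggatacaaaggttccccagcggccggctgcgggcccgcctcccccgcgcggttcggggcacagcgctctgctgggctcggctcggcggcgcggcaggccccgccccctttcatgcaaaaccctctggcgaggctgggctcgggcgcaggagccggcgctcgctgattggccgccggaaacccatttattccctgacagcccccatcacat
Sfrp2: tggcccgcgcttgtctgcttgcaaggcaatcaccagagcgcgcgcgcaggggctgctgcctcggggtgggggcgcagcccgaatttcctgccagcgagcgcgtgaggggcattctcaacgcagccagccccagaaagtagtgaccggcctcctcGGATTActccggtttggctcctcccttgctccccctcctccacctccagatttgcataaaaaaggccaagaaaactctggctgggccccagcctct

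Their GC content was 60.8% (Pax6), 72.8% (Lhx2), 72% (Sox2) and 63.6% (Sfrp2), against a median of 52.4% over the table's windows. Both strands were searched for TAATTA (homeodomain core), the paired-type homeodomain dimer site, TAATCC (OTX and CRX) and ACAATG (SOX core), which are held by 4.84%, 0.463%, 6.25% and 10.7% of 32851 windows of the same length. Of the 9 windows only that of Sfrp2 held a match, a single TAATCC on the reverse strand. Fzd5, Six3 and Six6 and the later starts of Pax6 and Lhx2 had no match either. The match is a description of the letters and says nothing of binding.

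Values are the authors' normalized CPM values, scaled in a way that no source used here gives, whose column sums ran from 719752 at P2 to 2277242 at P28. Read totals were not given, so the depth behind a value is unknown. Replicate P10 number 4 (column sum 870720) and P14 number 3 (1022875) stood below the others of their age (1122593 to 1388994 and 1346668 to 1435384). Markers broadly followed the labels: 10 fibroblast genes summed to 11042 to 12545 CPM in MEFs and 230 to 258 in CiPC, and 10 rod genes to 4.22 to 4.39 in MEFs, 317 to 332 in CiPC and 3617 to 3762 at P2. Differences below are on the log2(CPM + 1) scale with standard error, and understate the change of low genes. A gene was called higher or lower at a Benjamini-Hochberg adjusted p under 0.05 over all genes tested with limma and a fold of at least 2. In bulk libraries, fewer cells that express a gene and less RNA per cell cannot be told apart.

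The transcription factors were near the floor of the table in fibroblasts and both intermediates and were high at day 11, while Sfrp2 peaked at day 5 and was nearly gone at day 11. The plot of every library shows the 2 shapes, together with the decline in rods by age.

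**Figure D1:**
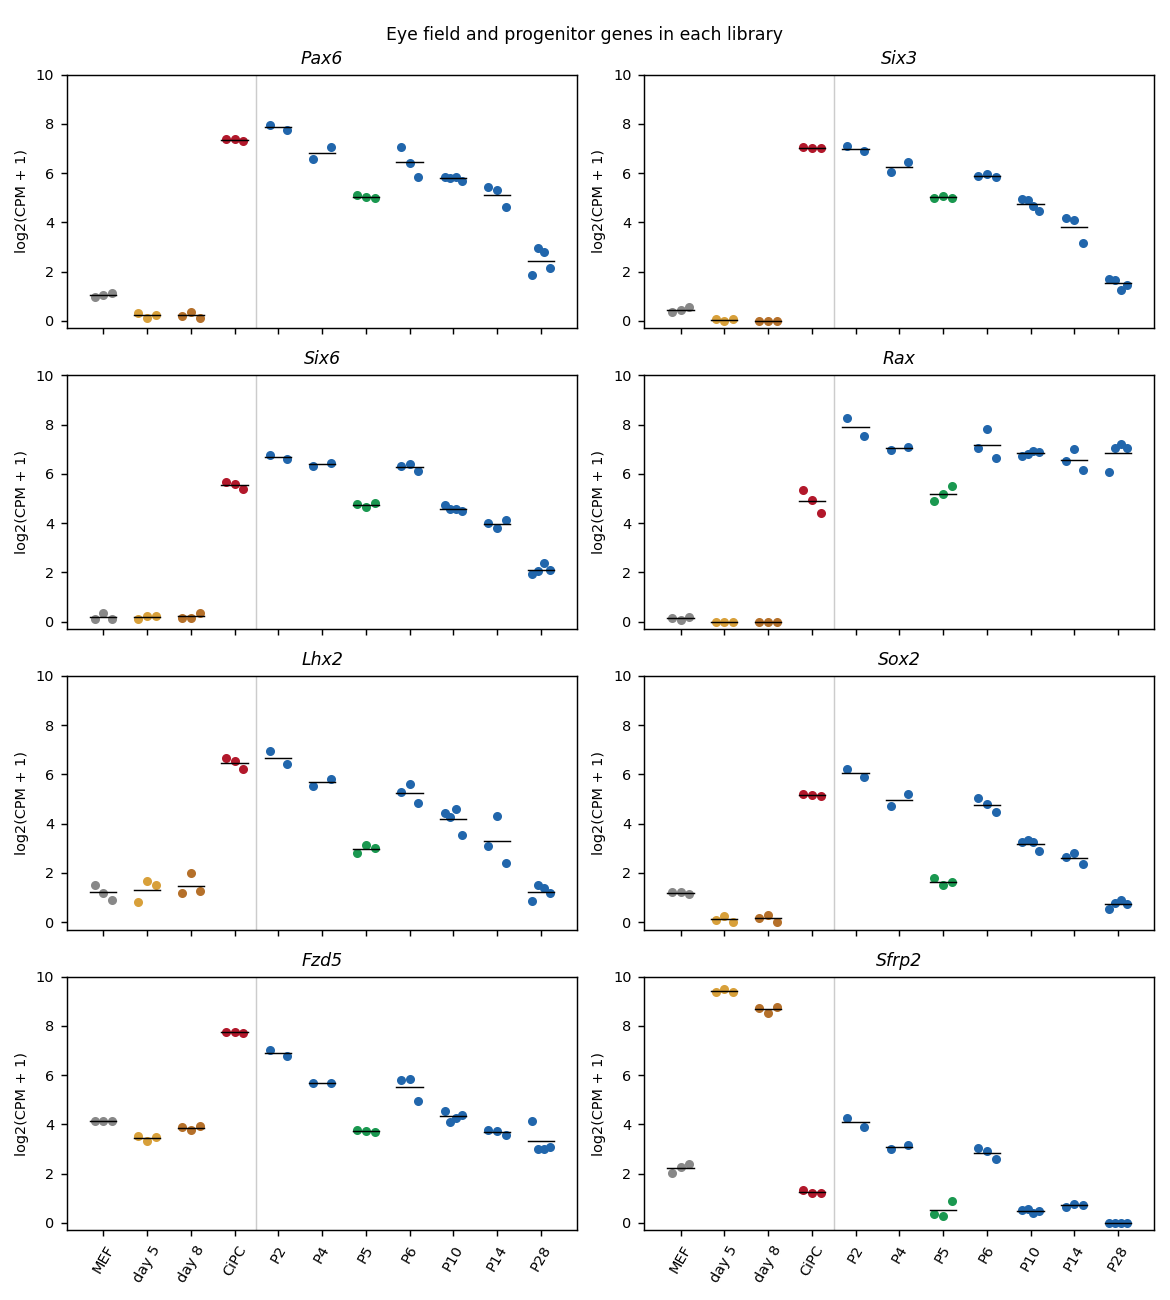
Levels of the 8 genes on the log2(CPM + 1) scale, 1 panel per gene, with 1 point per library and a line at each group mean; cultures stand left of the vertical line and rods right of it, with P5 in green. The 6 transcription factors and Fzd5 step up in CiPC, Sfrp2 is highest at day 5, and Rax stays high at P28 where the others are low.

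Pax6, the paired-type regulator of eye formation, was at 0.944, 1.05 and 1.20 CPM in the 3 MEF libraries, 0.240, 0.0773 and 0.192 at day 5, and 0.143, 0.299 and 0.0959 at day 8. In CiPC it was at 164, 164 and 155 CPM. The CiPC libraries were therefore apart from all earlier ones, and MEFs were apart from both intermediates.

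Six3, a repressor of Wnt signalling in the anterior forebrain, was at 0.294, 0.357 and 0.467 CPM in MEFs, 0.0461, 0 and 0.0489 at day 5, listed at 0 in every day 8 library, and at 134, 128 and 128 in CiPC. Its relative Six6, which supports progenitor proliferation, was at 0.0804, 0.263 and 0.0812 in MEFs, 0.0727, 0.184 and 0.158 at day 5, 0.119, 0.119 and 0.267 at day 8, and 50.1, 46.3 and 41.1 in CiPC. For both genes the CiPC range lay above all 9 earlier libraries. Six6 ranges overlapped among MEF, day 5 and day 8.

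Rax, required for the optic vesicle to form, was at 0.100, 0.0459 and 0.146 CPM in MEFs, listed at 0 in all 6 intermediate libraries, and at 39.3, 29.9 and 20.0 in CiPC. Among the 3 CiPC libraries it spanned the widest range relative to its mean among the transcription factors, with replicate 1 high and replicate 3 low. Lhx2, a LIM-homeodomain factor of the optic vesicle, was at 1.88, 1.28 and 0.884 in MEFs, 0.752, 2.15 and 1.83 at day 5, 1.28, 3.01 and 1.39 at day 8, and 99.7, 93.3 and 73.2 in CiPC. The first 3 groups overlapped for Lhx2 and CiPC stood apart.

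Sox2 was at 1.34, 1.36 and 1.20 CPM in MEFs, 0.0775, 0.195 and 0 at day 5, 0.128, 0.217 and 0 at day 8, and 35.9, 35.0 and 33.4 in CiPC. It thus dropped out before it appeared at a high level, with no overlap between MEFs and either intermediate. Fzd5 was the member with a clear level in fibroblasts, at 16.5, 16.8 and 16.9 in MEFs, 10.7, 9.08 and 10.2 at day 5, 14.1, 12.8 and 14.2 at day 8, and 218, 216 and 211 in CiPC. None of its 4 culture groups overlapped.

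Sfrp2 was at 3.08, 3.89 and 4.20 CPM in MEFs, 671, 727 and 657 at day 5, 418, 371 and 436 at day 8, and 1.52, 1.33 and 1.34 in CiPC. The order was thus day 5, day 8, MEF and CiPC, with no overlap between any of the 4 groups.

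At day 5 against MEF, 4 of the 8 genes passed the filter of 1 CPM in at least 3 libraries, since Pax6, Six3, Six6 and Rax were too low in both groups. Sfrp2 was called higher and Sox2 lower, where 14.7% of the 13598 genes tested were called higher and 13.7% lower. Sox2 was under 1 CPM in every day 5 library, so it passed the filter through MEFs alone and could only be called lower. Sfrp2 differed by 7.19 ± 0.086 (adjusted p = 3.48e-12, limma) and Sox2 by -1.08 ± 0.12 (adjusted p = 1.52e-05, limma). With a pseudocount of 2 the Sox2 difference was -0.66, under the fold threshold. Fzd5 differed by -0.69 ± 0.082 (adjusted p = 3.19e-05, limma), under the fold threshold, and Lhx2 by 0.11 ± 0.23 (adjusted p = 0.668, limma), a difference whose sign turned with single libraries. Fibroblast genes moved with Sfrp2: 7 of 10 were called higher and 1 lower, and their summed level was 46600 to 48653 CPM at day 5. Their part in the Sfrp2 result was not tested.

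Between day 5 and day 8, 3 of the 8 genes passed the filter and none was called in limma's test, where 3.61% of 13259 genes were called higher and 3.01% lower. Sfrp2 (-0.75 ± 0.067, adjusted p = 1.53e-05, limma) and Fzd5 (0.42 ± 0.095, adjusted p = 0.00524, limma) passed the adjusted p but not the fold. Lhx2 differed by 0.16 ± 0.27 (adjusted p = 0.642, limma), and its sign also turned when 1 library was left out. Fibroblast genes summed to 50810 to 54291 CPM at day 8.

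CiPC against day 8 gave the largest steps of the time course. All 8 genes passed the filter, 7 were called higher and Sfrp2 lower, where 15.2% of 13792 genes were called higher and 16.6% lower. Pax6, Six3, Six6, Rax and Sox2 were under 1 CPM in every day 8 library. These genes passed the filter through CiPC alone and could only be called higher. Pax6 differed by 7.10 ± 0.098 (adjusted p = 1.24e-10, limma), Six6 by 5.32 ± 0.11, Sox2 by 5.01 ± 0.11, Lhx2 by 4.99 ± 0.22 and Fzd5 by 3.88 ± 0.066. Six3 (adjusted p = 7.69e-11, limma) and Rax (adjusted p = 8.31e-08) were listed at 0 at day 8, so no fold is given. Sfrp2 differed by -7.41 ± 0.086 (adjusted p = 6.77e-11, limma). In the same step all 10 fibroblast genes were called lower, with a median of -7.22. Rod genes were called higher in 9 of 10, bipolar genes in 7 of 8 and Müller glia genes in 5 of 10, with 3 lower. At day 8, 8 of the 10 rod genes and 7 of the 8 bipolar genes had a mean under 1 CPM. Any list gene under 1 CPM in every day 8 library could likewise only be called higher. The part of these cell types in the differences of the 8 genes was not tested.

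**Figure D2:**
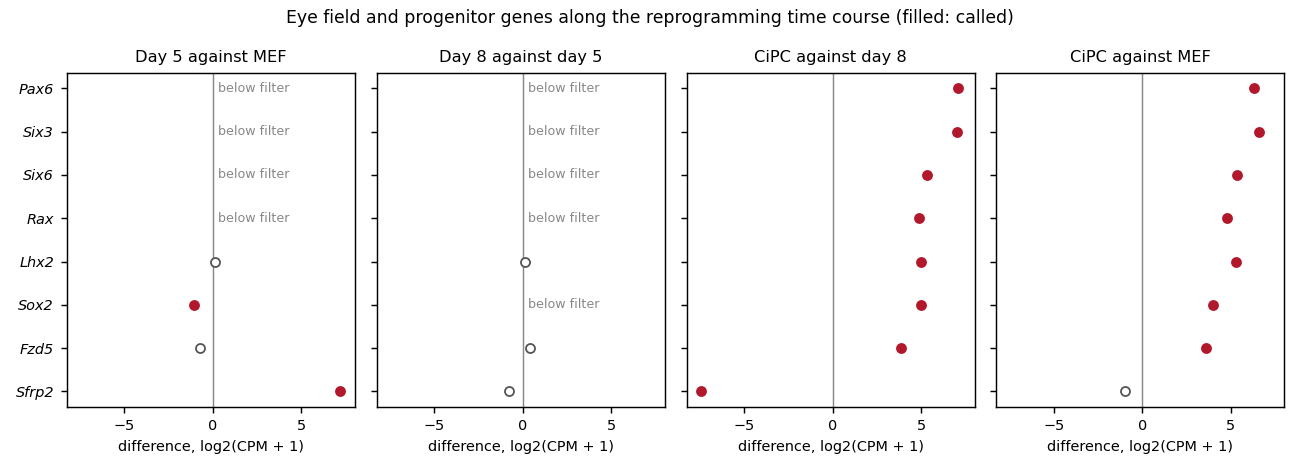
Differences in log2(CPM + 1) for the 8 genes in 4 comparisons among cultures; points are limma estimates with standard errors, which are mostly smaller than the points, and filled points are called. Genes marked as below the filter were not tested; the day 8 level of Six3 and Rax was listed at 0, so their points against day 8 depend on the pseudocount. The 7 genes other than Sfrp2 lie between 3.61 and 6.58 in CiPC against MEF.

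CiPC against MEF gave the same 7 genes as higher, where 16.5% of 13719 genes were called higher and 17.2% lower. Six3, Six6 and Rax were under 1 CPM in every MEF library, so they passed the filter through CiPC alone and could only be called higher. The median over the 8 genes was 5.01, against -0.05 over all genes tested. Six3 differed by 6.58 ± 0.087 (adjusted p = 1.03e-10, limma), Pax6 by 6.30 ± 0.083, Six6 by 5.36 ± 0.12, Lhx2 by 5.27 ± 0.17, Rax by 4.76 ± 0.21, Sox2 by 3.96 ± 0.089 and Fzd5 by 3.61 ± 0.053. Sfrp2 was below its level in the starting fibroblasts, by -0.97 ± 0.12 (adjusted p = 6.9e-05, limma), just under the fold threshold. It passed that threshold without MEF replicate 1 (-1.07), without CiPC replicate 1 (-1.01), with a pseudocount of 0.5 (-1.15) and after quantile normalization (-1.08).

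Progenitor genes outside the 8 moved alongside them. Of 17 other retinal progenitor genes, 16 were tested in CiPC against MEF, and 13 were called higher and 1 lower, with a median of 2.54. Over all genes tested, 16.5% were called higher and 17.2% lower. Of the 17, 8 had a mean under 1 CPM in MEFs, among them Dapl1 (0.0257) and Nr2e1 (0.0839). A gene under 1 CPM in every MEF library passed the filter through CiPC alone and could only be called higher. Dapl1 differed by 6.92 ± 0.089 and Nr2e1, a nuclear receptor of neural progenitors, by 6.20 ± 0.093. The gene called lower was Meis2, by -1.76 ± 0.095. At day 5 against MEF, 9 of the 17 were tested, with Mitf called higher (1.27 ± 0.11) and Hes1 (-2.29 ± 0.086) and Ccnd1 (-2.12 ± 0.048) called lower.

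Many markers of cells that also use these factors were higher in CiPC than in MEFs. Dkk3 stands on both the progenitor and the Müller glia list. Of 10 Müller glia genes, 8 were tested against MEF and 7 were called higher, and their sum was 3370 to 3459 CPM in CiPC against 332 to 356 in MEFs. That sum was already 1004 to 1098 CPM at day 5 and 1588 to 1910 at day 8, where the transcription factors were near the floor. Apoe (473 and 684 CPM) and Glul (202 and 622) made up most of it at day 5 and day 8. Slc1a3 had also risen, from 5.16 in MEFs to 45.2 and 84.9. Rlbp1 (0.0696 and 0.0316) and Kcnj10 (0.150 and 0.165) were still near the floor there, and were at 263 and 108 in CiPC. Bipolar genes were called higher in 7 of 8 (sum 175 to 203 against 74.1 to 82.9 CPM) and amacrine and horizontal genes in 6 of 9 tested from 11 (61.6 to 67.0 against 29.6 to 36.0), and none of these lists had a member listed at 0 in all CiPC libraries. In MEFs, 6 of the 8 bipolar, 7 of the 11 amacrine and horizontal and 4 of the 10 Müller glia genes had a mean under 1 CPM. Those under 1 CPM in every MEF library could only be called higher, if tested. Prkca made up most of the bipolar sum in MEFs, with a mean of 75.9 CPM there and 57.8 in CiPC. All 10 proliferation genes were called higher, with sums of 1523 to 1661 CPM against 461 to 463. Their part in the result for the 8 genes was not tested. Lens and pluripotent markers stood near 0 in CiPC, with Cryba1, the 1 lens gene of 8 in the table, at 0.0537 to 0.118 CPM, and Pou5f1 and Lin28a, 2 of 6 pluripotency genes, summing to 0.332 to 0.434. Of the telencephalon and neural stem cell genes, 6 of 9 were tested, and Fabp7 was called higher and 4 lower, among them Emx2 (-3.44 ± 0.12) and Dlx1 (-2.47 ± 0.13).

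In the Wnt receptor and antagonist family, of 13 other frizzled receptors and secreted frizzled-related proteins, 10 were tested in CiPC against MEF, with 2 called higher, 3 lower and a median of -0.50, where 16.5% of all genes were called higher and 17.2% lower. Fzd3 (1.59 ± 0.086) and Fzd1 (1.01 ± 0.062) were higher, and Fzd7 (-2.72 ± 0.065), Fzd2 (-2.05 ± 0.14) and Sfrp1 (-1.97 ± 0.06) were lower. At day 5 against MEF, 11 were tested, with 4 called higher and 2 lower, where the shares over all genes were 14.7% and 13.7%. Sfrp1, the closest secreted relative among those named, rose with Sfrp2 at day 5, from 78.8 to 295 CPM (1.89 ± 0.033), beside Fzd4 (2.59 ± 0.068) and Fzd1 (2.26 ± 0.032). From day 8 to CiPC, Sfrp1 fell with Sfrp2, by -2.86 ± 0.063, and Fzd4 by -3.11 ± 0.073.

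Against the youngest rods, the reprogrammed cells held the 8 genes at unequal levels. At P2, Rax was at 311 and 184 CPM, Six6 at 108 and 96.6, and Sfrp2 at 18.3 and 14.1, all above every CiPC library. Pax6 at 249 and 216 and Sox2 at 72.7 and 58.7 were also above the CiPC range, while Fzd5 at 128 and 108 was below it. Six3 at 136 and 118 and Lhx2 at 122 and 85.0 overlapped with CiPC.

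Of the 8 genes, none was called higher and 3 lower in CiPC against P2 rods, where 19.7% of 13677 genes were called higher and 18.6% lower. Rax differed by -3.02 ± 0.29 (adjusted p = 1.81e-05, limma), Sfrp2 by -2.83 ± 0.16 (adjusted p = 6.84e-07, limma) and Six6 by -1.14 ± 0.12 (adjusted p = 2.76e-05, limma). The CiPC mean was 12.0% of the P2 mean for Rax, 8.64% for Sfrp2 and 44.9% for Six6. Sox2 (-0.89 ± 0.12), Pax6 (-0.52 ± 0.099) and Fzd5 (0.86 ± 0.1) passed the adjusted p but not the fold, and their CiPC means were 52.9%, 69.3% and 182% of P2. Without P2 replicate 2, Sox2 was called lower as well (-1.04). For Six3 (0.037 ± 0.098, adjusted p = 0.741) and Lhx2 (-0.21 ± 0.18, adjusted p = 0.313) limma found no difference, and the sign turned without 1 P2 library (Six3 at -0.062 without replicate 2, Lhx2 at 0.049 without replicate 1).

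Six3 and Six6 both rose in CiPC, but Six3 stood higher relative to Six6 there than in rods. The log2(CPM + 1) of Six3 minus that of Six6 was 1.40, 1.45 and 1.61 in the 3 CiPC libraries, 0.33 and 0.29 at P2, and between -1.12 and 0.41 over all 21 rod libraries. The CiPC range did not overlap with that of any rod age.

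**Figure D3:**
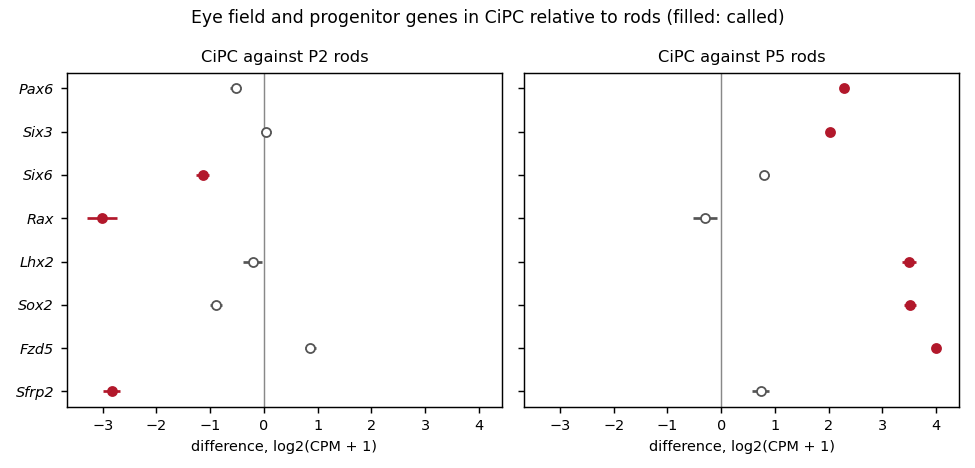
Differences in log2(CPM + 1) of CiPC minus P2 rods (left) and CiPC minus P5 rods (right); points are limma estimates with standard errors and filled points are called. Rax, Six6 and Sfrp2 are lower than at P2, and Pax6, Six3, Lhx2, Sox2 and Fzd5 are higher than at P5.

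Other progenitor genes split in the same comparison with P2 rods. Of the 17, 4 were called higher and 7 lower, where 19.7% of all genes tested were called higher and 18.6% lower. Dapl1 (1.77 ± 0.11) and Pax2 (2.77 ± 0.26) were higher, and Otx2, a photoreceptor and bipolar factor (-3.83 ± 0.097), the Notch target Hes5 (-4.42 ± 0.37) and Foxn4 (-4.52 ± 0.19) were lower. Proliferation genes summed to 1614 to 1679 CPM at P2 and 1523 to 1661 in CiPC, with 1 of 10 called. Müller glia genes summed to 1015 to 1031 CPM at P2, with 6 of 9 tested called higher in CiPC, and amacrine and horizontal genes to 348.7 to 349.5, with 10 of 11 called lower. Cone genes were called lower in 7 of 7 tested and rod genes in 9 of 10. The part of these cell types in the differences of the 8 genes was not tested.

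Against P5 rods, which like the cultures carry no identifier of the older series, 5 of the 8 genes were called higher in CiPC and none lower, where 24.8% of 13546 genes were called higher and 18.5% lower (3365 and 2500 genes, or 2847 and 3361 after quantile normalization). At P5, Pax6 was at 33.7, 31.3 and 31.1 CPM, Six3 at 31.1, 32.1 and 30.8, Lhx2 at 6.06, 7.70 and 6.98, Sox2 at 2.48, 1.82 and 2.13, and Fzd5 at 12.7, 12.5 and 12.1. These 5 genes were above P5 in every CiPC library. Fzd5 differed by 4.01 ± 0.059 (adjusted p = 2.5e-11, limma), Sox2 by 3.51 ± 0.11, Lhx2 by 3.50 ± 0.13, Pax6 by 2.29 ± 0.062 and Six3 by 2.02 ± 0.058.

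Six6 at 26.5, 24.0 and 26.9 CPM and Sfrp2 at 0.296, 0.233 and 0.852 were also below CiPC in each P5 library, by 0.80 ± 0.09 and 0.74 ± 0.16, under the fold threshold. Sfrp2 passed it with a pseudocount of 0.5 (1.04). It was under 1 CPM in every P5 library and passed the filter through CiPC alone. Rax at 28.9, 35.0 and 44.1 overlapped with CiPC, and the difference of -0.30 ± 0.22 did not pass the test (adjusted p = 0.232, limma). Proliferation genes were called higher in CiPC in 10 of 10, Müller glia genes in 8 of 9 tested (3370 to 3459 CPM summed, against 349 to 381 at P5) and other progenitor genes in 12 of 16, with 3 lower. Bipolar genes were called lower in 7 of 8 and rod genes in 10 of 10. The part of these cell types in the differences of the 8 genes was not tested.

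The P5 rods stood below both neighbouring ages for every one of the 8 genes, a comparison added after the values were seen. At P4 and P6, Sox2 was at 25.3 and 36.3 CPM and at 31.7, 27.2 and 21.3, and Lhx2 at 45.8 and 56.1 and at 37.9, 47.8 and 27.7. Fzd5 was at 49.8 and 50.8 and at 54.2, 56.2 and 30.3, and Sfrp2 at 7.10 and 8.02 and at 7.24, 6.57 and 5.14. No P5 library of these 4 genes reached the lowest of the 5 neighbours.

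The other 4 genes did not overlap either. Pax6 was at 92.8 and 134 CPM at P4 and 132, 83.0 and 56.4 at P6, and Rax at 124 and 136 and at 131, 227 and 99.3. Six3 was at 65.5 and 86.8 and at 57.5, 62.0 and 55.5, and Six6 at 79.2 and 86.1 and at 78.9, 82.8 and 68.1. All 8 were called lower at P5, where 8.22% of 13652 genes were called higher and 13.1% lower. Sfrp2 was under 1 CPM in every P5 library, so it passed the filter through P4 and P6 alone and could only be called lower.

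Differences at P5 ran from Sox2 at -3.23 ± 0.17 (adjusted p = 1.51e-07, limma), through Lhx2 at -2.49 ± 0.17, Sfrp2 at -2.46 ± 0.18, Rax at -1.91 ± 0.23, Fzd5 at -1.86 ± 0.18, Six6 at -1.59 ± 0.096 and Pax6 at -1.58 ± 0.23, to Six3 at -1.06 ± 0.1. Their median was -1.89, against -0.09 over all genes tested. Six3 fell under the fold threshold with median-of-ratios scaling (-0.97) and without P4 replicate 2 (-0.96). Series and age cannot be told apart here.

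Other cell markers moved with this dip, where 8.22% of all genes tested were called higher at P5 and 13.1% lower. Proliferation genes were called lower at P5 in 9 of 10, with sums of 90.8 to 95.0 CPM against 747 to 824 at P4 and 265 to 363 at P6. Müller glia genes were called lower in 6 of 9 tested and higher in 1 (349 to 381 CPM against 935 to 1057 and 779 to 1242). Bipolar genes were called higher in 5 of 8, with sums of 741 to 760.5 against 175 to 178 and 261 to 332, led by the bipolar receptor gene Grm6 (4.85 ± 0.16). Of the 17 other progenitor genes 12 were called lower and 2 higher, Pax2 among them. None of the proliferation, Müller glia or bipolar genes was listed at 0 in all libraries of P5, P4 or P6, and their part in the dip was not tested.

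**Figure D4:**
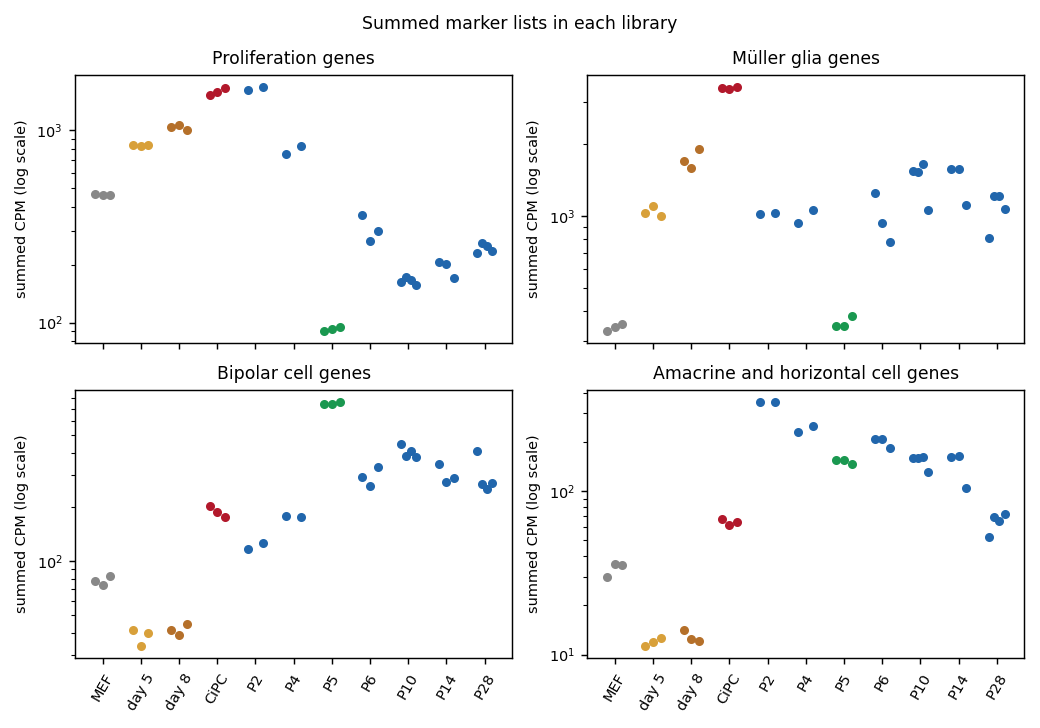
Summed CPM (log scale) of the proliferation, Müller glia, bipolar, and amacrine and horizontal cell gene lists, with 1 point per library by group. P5 rods (green) have the lowest proliferation and Müller glia sums and the highest bipolar sum among rods, and CiPC (red) have the highest Müller glia sum. By group means, Pcna made up most of the proliferation sum at P10, P14 and P28 (128, 143 and 213 CPM, against 41.2 at P5). Mki67 was higher at P5 (4.48) than at those ages (1.37, 0.276 and 0), while Ccna2 was lower at P5 (19.6) than at P10 (21.7).

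With age, 7 of the 8 genes declined in rods and Rax kept a high level. Over P10, P14 and P28, Pax6 was at 50.0 to 56.5, 23.5 to 42.0 and 2.58 to 6.71 CPM, Six3 at 21.2 to 30.1, 7.83 to 16.9 and 1.39 to 2.28, and Six6 at 21.3 to 25.5, 12.8 to 16.4 and 2.85 to 4.17. Lhx2 was at 10.6 to 22.9, 4.29 to 19.1 and 0.797 to 1.82, and Sox2 at 6.44 to 9.01, 4.15 to 6.06 and 0.446 to 0.859. For these 5 genes every P28 library was below every younger rod library.

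Fzd5 was at 16.3 to 22.1 CPM at P10, 11.0 to 12.7 at P14 and 6.91 to 16.6 at P28, so that P14 and P28 overlapped. Sfrp2 was at 0.328 to 0.484 and 0.578 to 0.715 and was listed at 0 in every P28 library. Rax was at 105, 111, 119 and 119 at P10, 90.7, 128 and 70.1 at P14, and 65.9, 130, 148 and 133 at P28. Neighbouring ages from P4 to P28, leaving P5 aside, overlapped for Rax, and at P28 it was at 48.2% of its P2 mean. The others were at 8.08% of P2 at P28 (Fzd5), 3.27% (Six6), 2.01% (Pax6), 1.49% (Six3), 1.33% (Lhx2) and 1.04% (Sox2).

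**Figure D5:**
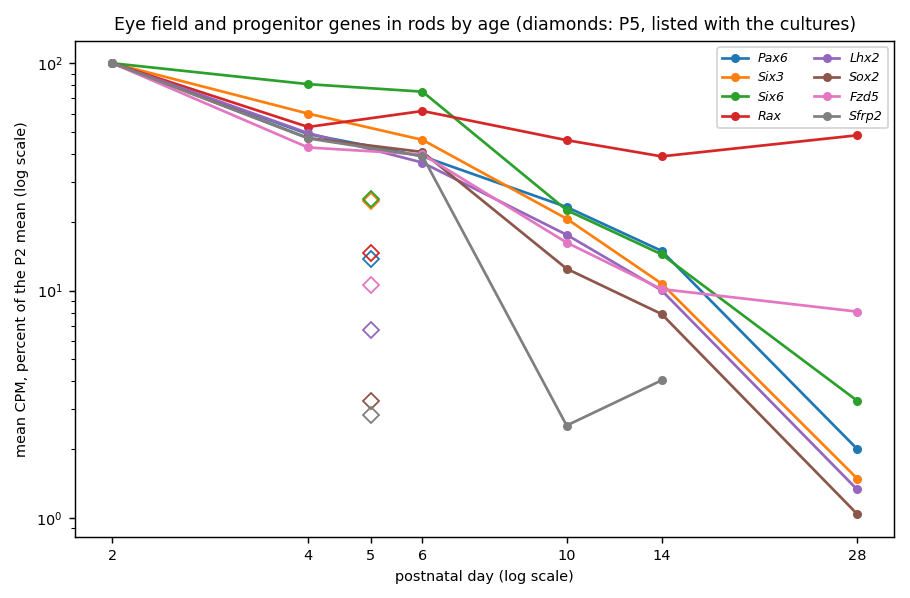
Mean CPM of each gene in rods as percent of its P2 mean (log scale) against postnatal day (log scale); lines join the ages in the slope and open diamonds show the P5 rods listed with the cultures. Sfrp2 was listed at 0 at P28 and has no point there. Rax is at 48.2% at P28 and the other 6 genes drawn there are at 8.08% or less.

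The slope on log2 of postnatal day, given as the change from P2 to P28 over 18 libraries of 6 ages, was called lower for these 7 genes, where 21.4% of 13884 genes were called higher and 32.6% lower (2978 and 4520 genes, or 3472 and 3252 after quantile normalization and 3331 and 4230 with median-of-ratios scaling). The median over all genes was -0.31, and 0.07 and -0.19 with those 2 scalings, and the median of the 8 genes was -5.23. Six3 changed by -5.75 ± 0.4 (adjusted p = 4.34e-10, limma), Lhx2 by -5.62 ± 0.42, Sox2 by -5.53 ± 0.3, Pax6 by -5.37 ± 0.47, Six6 by -5.10 ± 0.38 and Fzd5 by -3.70 ± 0.3. After subtracting the median of all genes, these 6 changes ran from -5.44 for Six3 to -3.39 for Fzd5. Sfrp2 was also called lower (adjusted p = 9.38e-09, limma), and from P2 to P14, without the libraries at 0, it changed by -3.95. It was under 1 CPM in every P10, P14 and P28 library, so it passed the filter through P2, P4 and P6 alone and could only be called lower. The 10 rod genes summed to 328760 to 508710 CPM at P28, a share of the library that moved with age.

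Rax changed by -0.95 ± 0.32 (adjusted p = 0.0126, limma), under the fold threshold. Relative to the median of all genes its change was -0.63. It was called lower without P4 replicate 1 (-1.01), without P28 replicate 2 (-1.07), replicate 3 (-1.13) or replicate 4 (-1.08), over P2 to P14 (-1.19) and after quantile normalization (-1.68). Without P10 replicate 4 and P14 replicate 3, which stood apart, the slopes were -0.88 for Rax and -5.71 for Six3, and the calls of the 8 genes were the same.

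Of the 17 other progenitor genes, 14 were called lower with age and none higher, among them Ccnd1 (-8.69 ± 0.61), Sox9 (-6.34 ± 0.37) and Tbx3 (-5.88 ± 0.45). Over all genes tested, 21.4% were called higher with age and 32.6% lower. Proliferation genes were called lower in 9 of 10, with sums of 1614 to 1679 CPM at P2 and 230 to 261 at P28, where Mki67 was listed at 0. Pcna made up most of the P28 sum, with a mean of 213 CPM there and 231 at P2. Amacrine and horizontal genes were called lower in 7 of 11 (348.7 to 349.5 CPM at P2, 52.3 to 72.3 at P28), while Müller glia genes were called higher in 4 and lower in 4 of 10. Other frizzled and secreted frizzled-related genes were called lower in 9 of 11, led by Fzd3 (-4.31 ± 0.47). The part of other cells in the slopes was not tested.

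Scaled by the longest coding transcript, the order of the 8 genes differed between CiPC and rods. In CiPC the mean CPM per kilobase was 36.4 for Pax6, 35.3 for Six3, 31.3 for Lhx2 and 31.1 for Fzd5, then 16.9 for Sox2, 12.8 for Rax, 11.4 for Six6 and 0.698 for Sfrp2. In P2 rods Rax led with 106.5 CPM per kilobase, followed by Pax6 with 52.5 and Lhx2 with 36.4. At P28 Rax stood at 51.3 and the next, Fzd5, at 1.38, and in MEFs Fzd5 led with 2.42 ahead of Sfrp2 with 1.86. Pax6 coding transcripts span 528 to 4427 bases, so these levels depend on the transcript assumed.

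In some groups 1 library was highest or lowest for most of the genes. CiPC replicate 1 was highest in 7 of the 8 genes and replicate 3 lowest in 7. P4 replicate 2 and P2 replicate 1 were highest in all 8, and P6 replicate 3 and P2 replicate 2 were lowest in all 8. P14 replicate 3 was lowest in 6. At P5 and at day 8, no library was highest or lowest in more than 3 of the genes.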

How the data were processed

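RNA-seq libraries of cultured cells and isolated rods were read from 1 deposited table of 15289 genes and 33 libraries. Per the submitters' processing notes, kallisto was used; no source used here gives its version, index, strand setting or scaling. The deposited values are normalized CPM, a signal that the authors scaled between libraries, since the column sums differ between groups. Values above 0 are not whole, so no counts were recovered and no count test was run. All columns were matched to samples by name.

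Values were analysed as log2(CPM + 1) with limma 3.58.1 (R 4.3.3; lmFit, eBayes with a mean trend), on genes at 1 CPM or more in at least 3 libraries of the fit, or 2 where the smallest group has 2, with only the groups compared. P-values were adjusted by Benjamini-Hochberg over all genes tested, and calls also needed a fold of at least 2. The scripts were tested on simulated data. The 8 genes, the gene lists and the comparisons were chosen with earlier results of these data known; the comparison of P5 with P4 and P6 rods was added after its values were seen. From each list up to 3 genes with the largest called changes in each direction were named, plus list genes under 1 CPM, and, for likeness, the 3 genes with the highest Pearson correlation to each of the 8 over 11 group means, among genes of at least 10 CPM in a group. Other genes named beyond this were chosen after their values were seen. Gene positions come from GENCODE M21 (GRCm38), which matched 99.05% of the identifiers, and promoters from RefSeq (GRCm38.p6). Values of some list genes are not reported here. Fzd6 has 2 rows with equal values and was counted once. The alternatives were other pseudocounts, no filter, quantile and median-of-ratios scaling, no mean trend, no fold threshold, a replicate block, all libraries in 1 fit, and each replicate left out in turn.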

Additional observations from a re-analysis of the deposited data

Results flagged for a closer look

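In 15 groups of 4 libraries (the 8 genes at P10 and P28, apart from Sfrp2 at P28, where all values are 0), 2 libraries lay far from the other 3 by Dixon's criterion, which chance alone meets in about 1 of 20 groups. Sox2 at P10 was 6.44 CPM in replicate 4 against 8.65 to 9.01 in the other libraries of that age. Fzd5 at P28 was 16.6 CPM in replicate 1 against 6.91 to 7.58 in the others. Replicate 4 of P10 was also lowest in 5 of the 8 genes and had the lowest column sum of its age. The causes were not tested.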

How the results depend on the processing

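Over all alternatives, 921 values of single genes kept their direction and side of the threshold, 22 moved past it, 3 fell short of it and 7 turned in sign, all 7 for Lhx2 or Six3 at differences that did not pass the test. Without a fold threshold all-gene calls were 11010 at day 5 against MEF (5531 higher, 5479 lower) and 6575 at day 8 against day 5 (3400 and 3175). For CiPC they were 10360 against day 8 (4935 and 5425), 10931 against MEF (5165 and 5766), 11609 against P5 (5727 and 5882) and 10252 against P2 (5115 and 5137). P5 against P4 and P6 had 8954 (3970 and 4984), and the age slope 4081 higher and 5600 lower. Among the 8 genes lower calls were then 2 at day 5, 1 at day 8, 1 in CiPC against MEF and 5 against P2. Higher calls were 1 at day 8 and 1 against P2. In CiPC against P5, Six6 and Sfrp2 joined the higher calls, and in the slope Rax joined the lower ones. A pseudocount of 2 left 0 lower calls at day 5, and a pseudocount of 0.5 or quantile normalization gave 1 lower call (Sfrp2) in CiPC against MEF. Without P28 the age slope gave 4969 calls over P2 to P14, where fewer libraries enter. Lhx2 turned at day 5 with quantile normalization (-0.072), and leaving out 1 library moved it between -0.055 and 0.37 there, -0.10 and 0.33 at day 8 against day 5, and -0.46 and 0.049 against P2, and Six3 between -0.062 and 0.14 against P2; the libraries that turned it were MEF replicate 3 and day 5 replicate 2, then day 5 replicate 1 and day 8 replicate 2, then P2 replicate 1, and for Six3 P2 replicate 2. Leaving out 1 library moved lower calls among the 8 genes between 0 and 1 in CiPC against MEF, 3 and 4 against P2, 7 and 8 at P5 and 7 and 8 in the slope, and no other count of these genes. With a replicate block, the number of the 8 genes called stayed the same in every comparison (7 higher in CiPC against MEF, and 4625 genes in all). Deviations of same-numbered libraries correlated at 0.096, -0.0056 and -0.047 at day 5 against MEF. Over the comparisons between groups these correlations ran from -0.44 (CiPC against day 8, replicate 3) to 0.28 (CiPC against P2, replicate 1). With so few libraries they cannot settle whether the numbers pair the samples. Depth is unknown, so values under about 1 CPM carry no stated precision, and with 2 libraries at P2 and P4 the spread there is poorly known.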

Other observations

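Of 23 paralogs of the 6 transcription factors, 19 were in the table and 17 were tested in CiPC against MEF, with 3 called higher, 8 lower and a median of -0.69, where 16.5% of all genes were called higher and 17.2% lower. Sox3, which belongs to the same subgroup as Sox2, reached 51.6 ± 10.9 CPM (SD, n = 3) in CiPC against 6.90 ± 1.85 (n = 2) at P2 and 0.0484 ± 0.048 in fibroblasts (CiPC against P2: 2.73 ± 0.21, adjusted p = 4.78e-06, limma). Pax2, a marker of the optic stalk, had 10.9 CPM in CiPC against 0.798 at P2 and 0.109 in fibroblasts (CiPC against P2: 2.77 ± 0.26). Lhx4, which is also a bipolar gene, was at 22.6 CPM in CiPC and 1.07 in MEFs. Pax3 (-3.50 ± 0.1), Lhx9 (-3.51 ± 0.13) and Six2 (-2.22 ± 0.13) were lower in CiPC than in MEFs. Fzd1 had 155 ± 10.8 CPM in CiPC against 3.19 ± 0.203 at P2 (5.22 ± 0.11, adjusted p = 4.74e-09, limma), a larger difference between CiPC and P2 than that of Fzd5.

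Among 12090 genes, those most like each member over the 11 group means of log2(CPM + 1) are given as a description, with points that share libraries and scaling. Pax6 was most like Six3 (Pearson r = 0.991), Six6 (0.983) and Gpm6a (0.980), and Six3 like Pax6, Fam184b (0.986) and Dab1 (0.985). Six6 was most like Rab11fip4 (0.987), Epha5 (0.985) and Tox2 (0.985). Lhx2 and Sox2 were each among the nearest of the other (0.980), with Sowaha near both (0.986 and 0.980) and Nrarp near Sox2 (0.986). Rax stood nearer to Pwwp2a (0.989), Rorb (0.986) and Hook1 (0.984) than to any of the other 7 genes, and its r with Fzd5 was 0.392. Fzd5 was most like Cyp26a1 (0.976), Prkch (0.962) and Lfng (0.954). Sfrp2 was most like Tspan11 (0.986), Kcp (0.984) and Rassf2 (0.979), and its r with the other 7 genes ran from -0.661 to -0.119.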
